A study of Mus musculus with 12 samples.

Results

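The genes described here are ceruloplasmin (Cp) and 8 other genes that move iron into, through and out of cells, namely Slc40a1, Tfrc, Slc11a1, Slc11a2, Cybrd1, Hmox1, Fth1 and Ncoa4. Every probe set, a group of short probes on the array for 1 transcript, was taken whose annotation gave one of these genes as its single symbol. This gave 25 probe sets of 9 genes, out of 45037 probe sets and 18193 named genes on the array. The members were chosen by measured values, namely the signals of Cp, which parted the same arrays as a probe set that has no symbol in the annotation used here and is called the splitting probe set below. The values of Cp across that split are therefore a description and carry no test.

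Mesenchymal stem cells (MSCs) positive for PDGFR-α and Sca-1 were sorted from bone marrow and cultured with or without hematopoietic stem cells (HSCs), which were negative for lineage markers and positive for Sca-1 and c-Kit. The co-culture group (treated, labelled Assay) held 3000 MSCs and 7000 HSCs per well, and the MSC-only group (control, labelled Cont) held MSCs without HSCs, with 6 arrays in each group. All cells were labelled as coming from male C57BL6/J mice aged 6 weeks, were grown in IMDM with 20% FBS, and were taken on day 6 for total RNA. The comparison asks how the RNA of these cultures differed with and without HSCs, and it does not isolate MSC transcripts.

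The labels do not say whether the arrayed co-cultures were direct or through an insert, which arrays share a mouse, or whether MSCs were sorted again before RNA was taken. Labels that number the arrays 1 to 6 in each group do not state separate cultures or animals, so p-values measure only the spread between these 12 samples. In bulk RNA, fewer cells of a type and less RNA per cell cannot be told apart.

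Some arrays went against their labels. Xist, transcribed from the inactive X chromosome of females, read 13135.8 to 21977.5 on 8 of the 12 arrays, although every sample was labelled male, and 60.5 to 117.6 on control arrays 1, 2, 5 and 6. The Y-linked gene Eif2s3y read 2603.8 to 2844.8 on those 4 control arrays, 1021.6 to 1330.9 on treated arrays 1, 2, 5 and 6, and 0.5 to 13.6 on the arrays numbered 3 and 4 of both groups. Treated arrays 1, 2, 5 and 6 thus held both kinds of transcript, and each of these 3 patterns had 2 arrays on either side of the splitting probe set. No control array held both kinds. On these numbers the mix of Xist and Y-linked transcripts therefore differed together with co-culture, and its part in the treated minus control differences was not tested. Without the arrays numbered 3 and 4, 0 of the 25 member probe sets were called, and the log2 differences between the sides of the splitting probe set were 2.89 for Cp, -0.84 for Tfrc, -0.95 for Slc11a1 and -0.95 for Hmox1. The arrays were otherwise alike, with correlations of 0.964 to 0.980 between arrays and a 2% trimmed mean signal of 496.6 to 497.3. Markers of more than 1 cell type were measured. Of the macrophage and leukocyte markers the 3 brightest were Lyz2 at 26297.8 to 45144.3, Csf1r at 22597.7 to 39488.9 and Tyrobp at 25597.2 to 34269.3, while Timd4 read 3.1 to 51.5. The means in treated and control were 35597 and 35546 for Lyz2, 31978 and 31361 for Csf1r, and 30472 and 29317 for Tyrobp. The cultures without HSCs thus held these 3 transcripts at levels like those of the co-cultures. Of the markers of MSCs and stroma the 3 brightest were Col1a2 at 9676.8 to 20612.1, Cxcl12 at 828.7 to 9227.2 and Col3a1 at 876.3 to 7492.6, and Pdgfra, which marked the sorted MSCs, read 406.9 to 1464.4. Of the markers of blood stem cells Meis1 read 48.3 to 271.0, Kit 2.3 to 67.2, Cd34 4.4 to 79.9 and Flt3 5.4 to 44.2 over all arrays. Cd34 averaged 52.6 ± 18.2 in treated and 28.1 ± 20.2 in control (SD, n = 6 each). Its log2 difference of 0.74 had a limma unadjusted p of 0.0313 and was not called.

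Cells take up iron bound to transferrin through the transferrin receptor, encoded by Tfrc, and divalent metal transporters move it out of endosomes and phagosomes into the cytosol. Iron that is not used is stored in ferritin or leaves through ferroportin, encoded by Slc40a1, and ceruloplasmin, a copper-containing ferroxidase, oxidizes the exported iron so that transferrin can bind it. In bone marrow, macrophages break down the heme of old red cells and return the iron, and iron regulatory proteins, which bind ferritin and transferrin receptor transcripts, set storage against uptake.

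Promoter windows of RefSeq (GRCm38.p6) were found for 6 of the 9 genes. Slc40a1, Hmox1 and Slc11a2 had none here. Stretches of 30 bases are shown for Cp, which defined the choice, and for Tfrc and Slc11a1, which ran opposite to it, with the motif in capitals. Other matches are not shown. TATAAA was also in 1 window of Fth1, at -124 from its start, and in 1 of Ncoa4, at -27, while another window of Cp held none. ACGTG was also in windows of Ncoa4, at -71 and -68, and in another window of Tfrc, at -228. GAGGAA was also in 1 window of Cybrd1, at -242. The capitals below mark the motifs shown. They are a TATA box (TATAAA), a hypoxia response core (ACGTG) and a core of PU.1 sites (GAGGAA), all read 5′ to 3′ on the + strand.
Cp at chr3:19957212-19957241, 25 bases before an annotated start: tgaagccctattTATAAAattgcttgcttc
Tfrc at chr16:32608882-32608911, across an annotated start: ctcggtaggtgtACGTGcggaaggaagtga
Slc11a1 at chr1:74375039-74375068, motif 152 bases before an annotated start: gggtatccaggaGAGGAAcgaaggtcaaaa
Among 32851 windows of 300 bases at RefSeq starts, 13.6% held TATAAA on either strand, 19.6% held ACGTG and 28.3% held GAGGAA. The E-box CACGTG, which contains ACGTG, was in 7.15% of the windows and in 0 of the 11 windows of these genes. The antioxidant response element TGACNNNGC was in 12.4% of the windows and, among these genes, in 1 window of Ncoa4. These matches describe letters in the windows and no binding was measured.

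Co-culture with HSCs did not move any of the 25 probe sets past the threshold. In limma's test on log2(signal + 16), with p-values adjusted across the whole array by Benjamini-Hochberg, 0 of the 25 were called, and 0 had an unadjusted p under 0.05. Over the whole array 2 of 45037 probe sets (0.00444%) were called, and 4.36% had an unadjusted p under 0.05. The lowest unadjusted p among the 25 was 0.129, for the dim Slc11a2 probe set 1441709_at, and every adjusted p was 1.0. The mean was higher in the treated group for 13 probe sets and lower for 12, with a median difference of 0.02 on the log2 scale, the same as the 0.02 over all probe sets. The treated and control arrays overlapped for all 25, while 0.198% of all probe sets did not overlap.

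The arrays fell into sets of 6 by the splitting probe set, a split that cut across the co-culture. Its signal was 23625.7 to 43044.3 on control arrays 1, 3 and 5 and treated arrays 2, 3 and 5, called the high side here. It was 16.7 to 57.2 on control arrays 2, 4 and 6 and treated arrays 1, 4 and 6, the low side. No array lay between, and each side held 3 treated and 3 control arrays. Of the member probe sets, 10 did not overlap between the sides, of which 7 were among the 8 of Cp, and over all probe sets 6.60% did not overlap. Of the 17 probe sets of the other members 3 did not overlap, which is 17.6%. Except for those of Cybrd1, these probe sets had mean signals of at least 100. Among genes that bright 14.6% did not overlap, which is near the share of the other members.

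**Figure D1:**
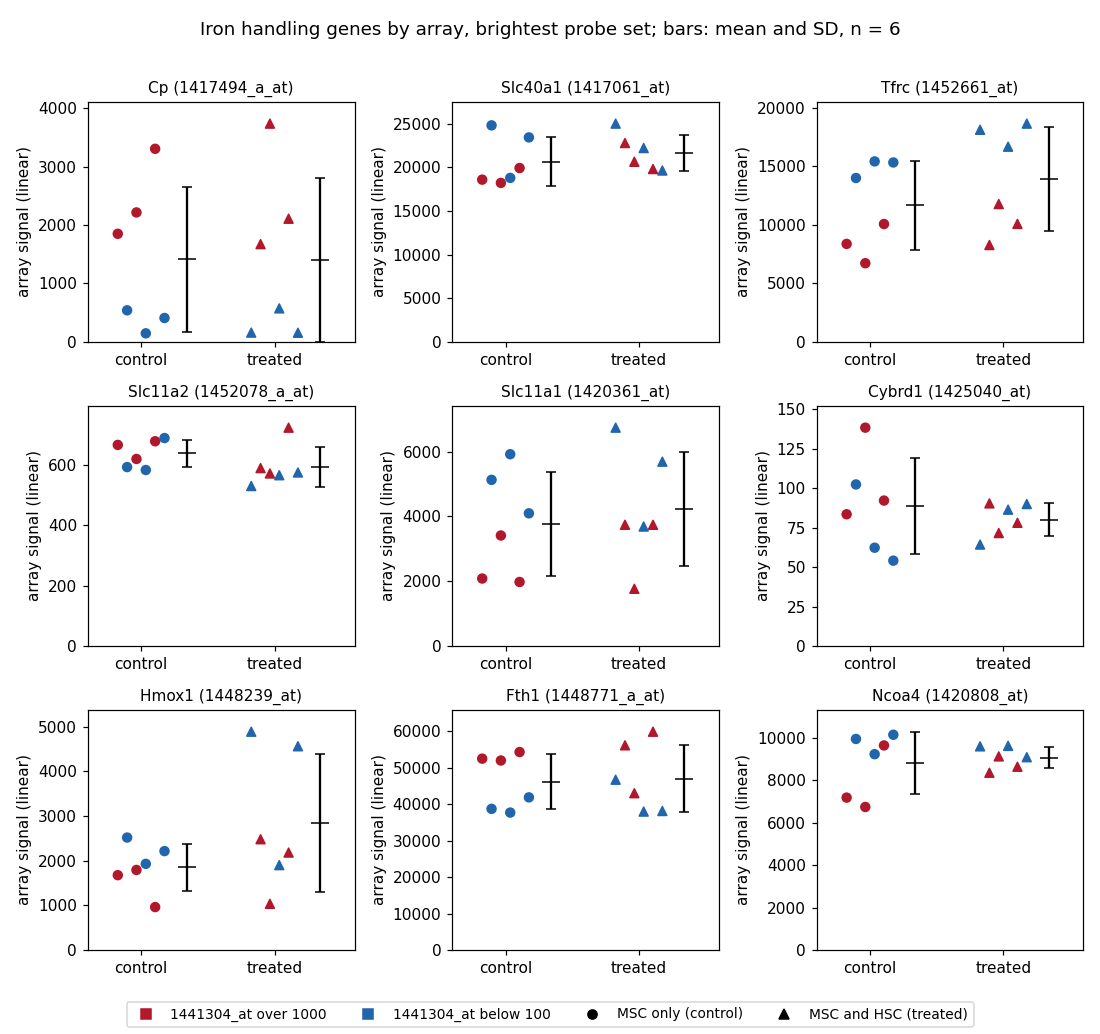
Signal of the brightest probe set of each of the 9 genes on each array, on a linear axis from 0, with control arrays as circles and treated arrays as triangles. Bars give the mean and SD of 6 arrays. Red and blue mark arrays with the splitting probe set (ID in the legend) over 1000 and below 100. Red and blue separate fully for Cp and Tfrc, while circles and triangles overlap in every panel.

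Iron export was measured by Cp and Slc40a1. The brightest Cp probe set, 1417494_a_at, read 160.2, 1673.4, 3734.5, 574.5, 2107.9 and 157.6 on treated arrays 1 to 6. On control arrays 1 to 6 it read 1850.3, 541.5, 2215.6, 147.7, 3303.9 and 410.2. Both groups thus held high and low arrays over the same range, and the means were 1401 ± 1399 (SD, n = 6) in treated and 1412 ± 1247 (SD, n = 6) in control. The log2 difference was -0.19 (SE 0.92, 95% interval -2.20 to 1.81, limma adjusted p = 1.0), an interval that runs to several fold in either direction. With the side as a term in the fit the difference stayed at -0.19 and its SE was 0.39 (95% interval -1.04 to 0.66). Cp was chosen because it parts along the side, so this smaller SE was built in and is no sharper estimate. Without the arrays numbered 3 and 4 it was -0.94 (SE 1.04, limma adjusted p = 0.911).

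Along the split Cp read 1673.4 to 3734.5 on the high side and 147.7 to 574.5 on the low side. The means were 2481 ± 838 and 332 ± 201 (SD, n = 6 each), which is 7.47-fold and 3.00 on the log2 scale. The difference was 3.18 among treated arrays and 2.82 among control arrays. All 8 Cp probe sets were higher on the high side, by 1.34 to 3.49 on the log2 scale, and the dim 1417497_at, at 32.6 to 123.9 against 3.1 to 42.2, was the one whose sides overlapped. The probe sets of Cp share a transcript and are not separate measurements of the cultures.

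**Figure D2:**
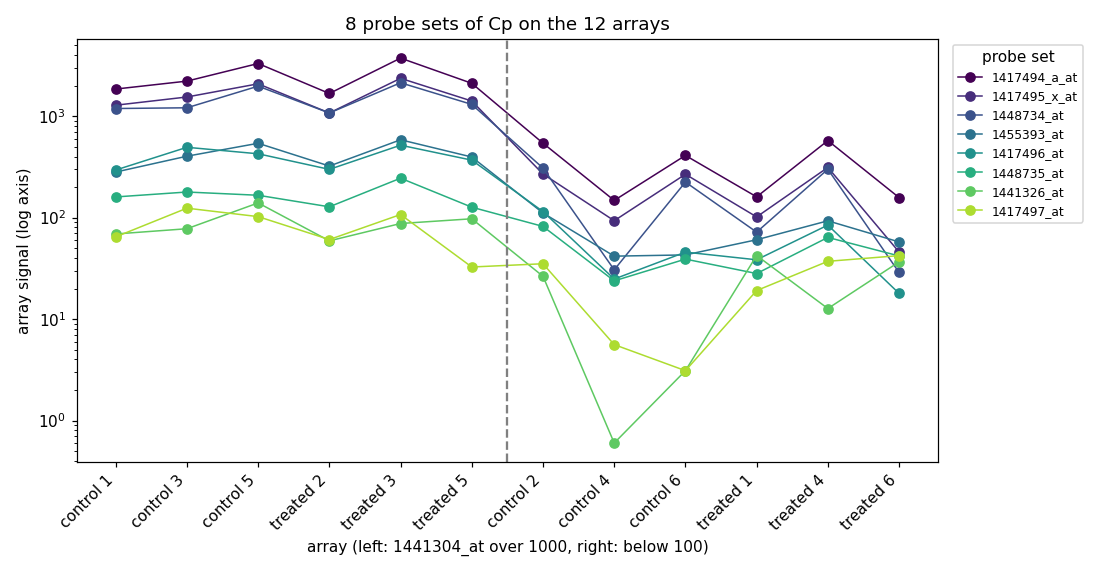
Signal of the 8 Cp probe sets on the 12 arrays, on a log axis, with the high side of the splitting probe set left of the dashed line and the low side right of it. Each line joins 1 probe set over arrays that have no order within a side. 1417494_a_at is brightest, at 1673.4 to 3734.5 on the left and 147.7 to 574.5 on the right.

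Ferroportin, the iron exporter encoded by Slc40a1, was bright everywhere and varied little. Probe set 1417061_at read 19642.5 to 25015.3 in treated (median 21431.2) and 18224.6 to 24816.2 in control (median 19362.8). The groups overlapped over most of their range, with means of 21687 ± 2067 and 20633 ± 2799 (SD, n = 6 each) and a log2 difference of 0.08 (SE 0.11, 95% interval -0.16 to 0.31, limma adjusted p = 1.0). Between the sides it differed by -0.15 on the log2 scale (high minus low) with overlap, against 3.00 for Cp. Its second probe set, 1448566_at, also differed downward, by -0.43 on the log2 scale, with a small overlap at 5133.5 to 6571.2 on the high and 6554.7 to 10218.9 on the low side.

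Uptake of transferrin-bound iron was measured by Tfrc. Probe set 1452661_at read 18113.9, 8276.2, 11774.1, 16671.2, 10080.9 and 18640.1 on treated arrays 1 to 6, and 8371.7, 13998.1, 6724.2, 15414.8, 10069.3 and 15322.8 on control arrays 1 to 6. Treated arrays 1, 4 and 6 lay above every control array, and the other 3 lay within the control range. The means were 13926 ± 4441 in treated and 11650 ± 3760 in control (SD, n = 6 each), and the log2 difference of 0.26 (SE 0.26, 95% interval -0.31 to 0.83) was not called (limma adjusted p = 1.0). With 1 array left out it ran from 0.12 without control array 3 to 0.40 without treated array 2, and it was 0.17 without treated array 1 and 0.16 without treated array 6.

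Tfrc ran opposite to Cp along the split. It read 6724.2 to 11774.1 on the high side and 13998.1 to 18640.1 on the low side, 1.78-fold higher on the low side, with no overlap. The difference was -0.84 on the log2 scale in treated and -0.85 in control, and within either side treated exceeded control by 0.26. With the side as a term the co-culture difference was 0.26 (SE 0.11, unadjusted p = 0.0443, limma adjusted p = 0.951), again not called. The dimmer probe set 1422966_a_at was 2.13-fold higher on the low side without overlap, at 340.1 to 530.3 against 133.5 to 278.0, and 1422967_a_at was also higher there on average, at 173.7 to 223.4 against 34 to 186.3, but overlapped.

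The divalent metal transporters Slc11a1 (NRAMP1), which pumps iron out of phagosomes of macrophages, and Slc11a2 (DMT1), which does so in endosomes, differed from each other along the split. Slc11a1, on probe set 1420361_at, read 6736.6, 3741.2, 1765.4, 3685.4, 3739.6 and 5687.0 on treated arrays 1 to 6. On control arrays 1 to 6 it read 2082.1, 5126.7, 3409.7, 5917.3, 1975.6 and 4093.9. Both groups held high and low arrays, and the log2 difference between them was 0.17 (SE 0.35, 95% interval -0.59 to 0.92, limma adjusted p = 1.0). The low side averaged 5208 ± 1152 and the high side 2786 ± 939 (SD, n = 6 each), 1.87-fold apart. The sides overlapped only in that treated arrays 2 and 5, at 3741.2 and 3739.6, lay just above treated array 4 at 3685.4, and among control arrays they did not overlap. Without the arrays numbered 3 and 4 the co-culture difference of Slc11a1 was 0.66 (SE 0.36, limma adjusted p = 0.796). With 1 array left out it ran from 0.0046 without control array 5 to 0.39 without treated array 3, and it was also moved by over 1.5 times without treated array 1 or 6 or control array 1, 2 or 4, never to a call.

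Slc11a2 was measured by 4 probe sets. Its brightest probe set, 1452078_a_at, read 530.4 to 723.9 in treated (median 573.65) and 583.5 to 689.4 in control (median 643.4). Of the treated arrays 4 lay below every control array and array 5 above them all, and the log2 difference was -0.11 (SE 0.09, 95% interval -0.31 to 0.10, limma adjusted p = 1.0). Probe set 1417584_at did not overlap between the sides, at 578.7 to 725.0 on the high and 520.9 to 572.3 on the low side, a log2 difference of 0.20. The other 3 probe sets of Slc11a2 overlapped, with side differences of 0.12 for 1452078_a_at, -0.03 for 1426441_at and 0.32 for 1441709_at. The last read 82.6 to 122.8 in treated and 79.4 to 221.3 in control, a log2 difference of -0.33 (SE 0.20, 95% interval -0.77 to 0.11, limma adjusted p = 1.0).

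Cybrd1, a ferric reductase that prepares iron for transport, was measured by 2 probe sets. Probe set 1425040_at read 64.3 to 90.4 in treated (median 82.25) and 54.1 to 138.4 in control (median 87.85), and the treated arrays lay inside the control range. The log2 difference was -0.08 (SE 0.18, 95% interval -0.46 to 0.30, limma adjusted p = 1.0). The sides overlapped, and the second probe set, 1460604_at, read no more than 32.3 on any array.

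Hmox1, heme oxygenase 1, opens the heme ring and frees its iron, and it had the largest co-culture difference among the 9 brightest probe sets without being called. It read 4889.6, 2481.6, 1034.8, 1901.9, 2183.0 and 4563.3 on treated arrays 1 to 6, and 1677.0, 2519.2, 1793.6, 1930.2, 962.1 and 2215.5 on control arrays 1 to 6. Treated arrays 1 and 6 lay above every control array and the other 4 lay within the control range. The means were 2842 ± 1541 and 1850 ± 531 (SD, n = 6 each), with a log2 difference of 0.49 (SE 0.36, 95% interval -0.29 to 1.26, limma adjusted p = 1.0). Without the arrays numbered 3 and 4 it was 0.93 (SE 0.37, unadjusted p = 0.0360), with an adjusted p of 0.713 by limma. With 1 array left out the difference ran from 0.29 without treated array 1 to 0.74 without treated array 3, where the limma adjusted p was 0.996, and it was 0.31 without treated array 6 or without control array 5. Hmox1 was higher on the low side, at 1901.9 to 4889.6 against 962.1 to 2481.6, or 1.78-fold, with overlap among treated arrays and none among control arrays.

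Storage was measured by Fth1, the ferritin heavy chain, and Ncoa4, the receptor that carries ferritin to lysosomes for iron release. Fth1 read 37938.8 to 59824.8 in treated (median 44821.7) and 37666.1 to 54253.3 in control (median 46880.2) on probe set 1448771_a_at, and the log2 difference was 0.02 (SE 0.15, 95% interval -0.31 to 0.34, limma adjusted p = 1.0). Processed copies of ferritin genes are common in the genome, so the source of this signal is uncertain. The high side averaged 52920 ± 5652 and the low side 40147 ± 3544 (SD, n = 6 each), 1.32-fold apart, and the sides overlapped only through treated array 3 at 42969.9 and treated array 1 at 46673.4. The second probe set, 1427021_s_at, read 26686.9 to 42671 in treated and 23199 to 42893.7 in control, with log2 differences of 0.02 (treated minus control) and 0.49 (high minus low) and overlap in both.

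The difference of Fth1 between the sides moved with the scale of the arrays. After quantile normalization it was 0.07 instead of 0.40 on the log2 scale. The highest signal on an array was 48200.3 to 66711.6 on the high side and 41549.4 to 52441.7 on the low side, and the part of this in the Fth1 values was not tested. Under the same normalization Slc40a1 differed by -0.39 between the sides instead of -0.15.

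Ncoa4 read 8350.7 to 9615.2 in treated (median 9101) and 6737.3 to 10139.1 in control (median 9430.25) on probe set 1420808_at. The treated arrays lay within the control range, and the log2 difference was 0.06 (SE 0.12, 95% interval -0.20 to 0.32, limma adjusted p = 1.0). Between the sides it differed by -0.22 on the log2 scale, with overlap. Its second probe set, 1450006_at, read 1657.1 to 2056.6 in treated and 1679.8 to 2581.4 in control, with log2 differences of -0.06 (treated minus control) and -0.16 (high minus low) and overlap in both.

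**Figure D3:**
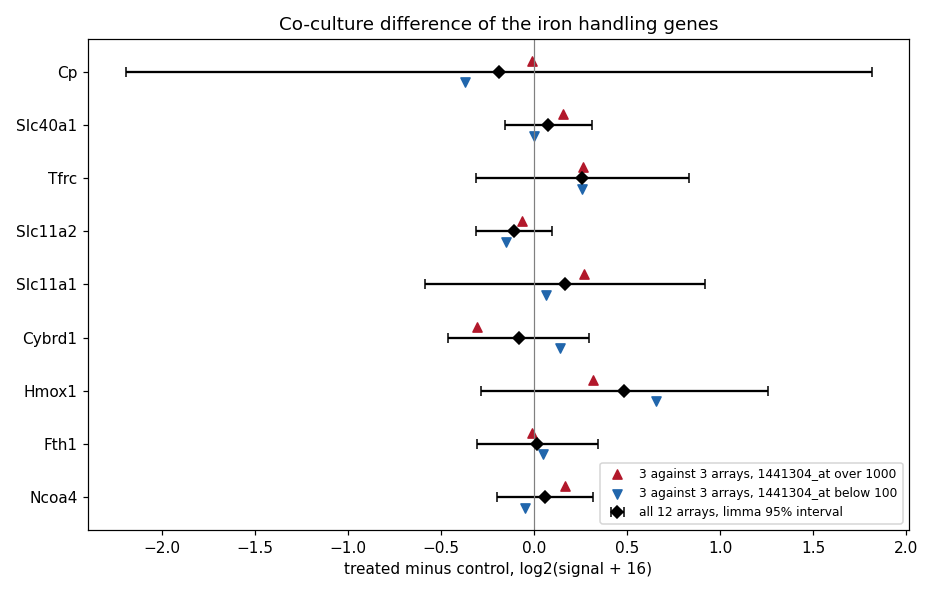
Treated minus control on the log2(signal + 16) scale for the brightest probe set of each gene. Diamonds and bars give the limma estimate over 12 arrays with its 95% interval, and triangles give the difference of means within each side of the splitting probe set, 3 against 3 arrays. Every interval spans 0, and that of Cp, -2.20 to 1.81, is the widest.

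Within a side, where the gap between the sides plays no part, the members were compared with Cp as a description over 6 arrays, which share the scaling of their array. Slc11a1 was lower where Cp was higher on both sides, with Pearson's r of -0.71 on the high and -0.83 on the low side. Hmox1 did the same, at -0.92 and -0.57. Fth1, which was brighter on the high side, had r of -0.65 and -0.23. Ncoa4 was higher where Cp was higher on both sides, at 0.61 and 0.74. The other members changed sign between the sides, with Tfrc at 0.67 on the high and -0.58 on the low side, Slc40a1 at -0.05 and 0.52, Slc11a2 at -0.18 and 0.40, and Cybrd1 at -0.24 and 0.35.

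**Figure D4:**
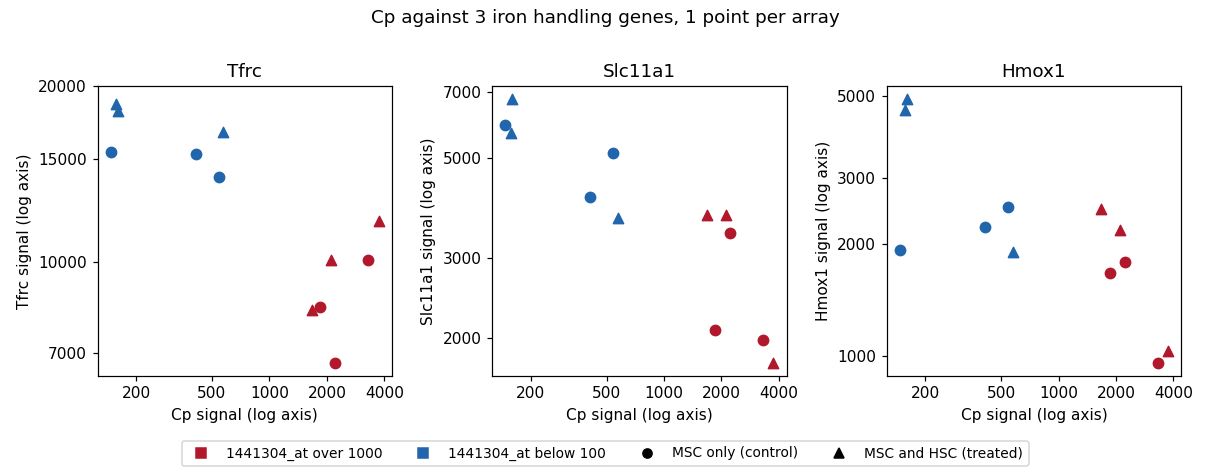
Signal of Cp (x axis) against Tfrc, Slc11a1 and Hmox1 (y axes), 1 point per array, all axes logarithmic. Red and blue mark arrays with the splitting probe set (ID in the legend) over 1000 and below 100, circles are control and triangles treated arrays. Slc11a1 and Hmox1 are lower where Cp is higher also among the red points alone, with r of -0.71 and -0.92 over 6 arrays.

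The genes most like Cp were sought among 10180 genes with a mean signal of at least 100, by Pearson's r over the 12 arrays on the log2 scale. The 8 highest were Gbp8, Calhm6, Maf, Rbpms, Gramd1b, Gaa, Derl1 and Arrdc4, with r from 0.980 to 0.989, and the 4 lowest were Slc39a6, Srxn1, Selplg and Glrx, with r from -0.985 to -0.979. Such values are carried mainly by the gap between the sides, and 14.6% of the genes searched did not overlap between them. Values within a side also entered the r that picked these genes, so they are no separate support. Within sides Gbp8, an interferon-induced GTPase, had r of 0.73 on the high and 0.99 on the low side, and Gramd1b, a sterol carrier, 0.94 and 0.97. Arrdc4 had the lowest r of the 8 on the high side, at 0.43, and 0.97 on the low side. Srxn1, sulfiredoxin, had r of -0.89 and -0.98 and read 821.0 to 967.4 on the high against 1906.8 to 2839.3 on the low side. For the other members the gene most alike was Rela for Slc40a1 (r = 0.89), Ebp for Tfrc (0.96), Fam185a for Slc11a2 (0.86), Derl2 for Slc11a1 (0.96), Tlcd2 for Cybrd1 (0.88), Mrpl20 for Hmox1 (0.93), Fabp5 for Fth1 (0.995) and Ms4a6d for Ncoa4 (0.96), each over 12 arrays.

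The wider pathway was covered by 96 genes in 8 lists, the 9 members included, each with its brightest probe set. Co-culture moved 0 of the 96 past the threshold, beside 2 of 18193 genes overall (0.0110%), and 0 had an unadjusted p under 0.05, beside 3.94% of all genes. Of the 96, 52 had a higher and 44 a lower mean in the treated group, and the median difference was 0.02 on the log2 scale, beside 0.01 over all genes. The smallest unadjusted p-values of the limma fit belonged to Bmp6, the main inducer of hepcidin, at 0.0896 and to Cox17, which carries copper to cytochrome oxidase, at 0.0909. Bmp6 was dim, at 41.2 ± 14.6 in treated and 25.5 ± 23.7 in control, and Cox17 read 6763 ± 468 and 6086 ± 337 (SD, n = 6 each). Over all genes 9687 of 18193 had a higher mean in the treated group. All 5 measured genes of ferritin and iron chaperones did, none of them called, by 0.02 for Fth1, which turned to -0.012 after quantile normalization and -0.022 after median centring, 0.04 for Pcbp1, 0.06 for Ncoa4, 0.08 for Pcbp2 and 0.34 for the dim Ftmt.

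None of the brightest genes of the other lists or of those with the smallest p-values was called between treated and control. In the uptake list the log2 difference was 0.15 for Slc39a13 and -0.00032 for Snx3. In the export list it was -0.15 for Neo1 and -0.28 for Hamp. In the heme breakdown list it was -0.01 for Blvra, 0.09 for Blvrb, 0.04 for Flvcr1, 0.13 for Slc46a1 and -0.43 for the dim Flvcr2. In heme synthesis it was 0.12 for Alas1, 0.02 for Urod, -0.02 for Fech, 0.24 for the dim Alas2, 0.07 for Uros and -0.08 for Ppox. Among genes of iron sensing it was -0.03 for both Aco1 and Nfe2l2, -0.10 for Hif1a and 0.11 for both Spi1 and Tfeb. Among mitochondrial genes it was -0.02 for Iscu, -0.09 for Glrx5, 0.03 for Hspa9, -0.13 for Lyrm4 and 0.23 for Iba57. Among copper genes it was 0.05 for both Mt1 and Atox1, -0.05 for Mt2, 0.13 for Atp7a and -0.12 for Sco2.

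Between the sides 21 of the 96 genes did not overlap, or 21.9%, beside 8.81% of all genes and 14.6% of genes with a mean signal of at least 100. Of the 21, 14 were higher on the high side and 7 on the low side. Of all 18193 genes, 4.64% were higher on the high side without overlap and 4.16% on the low side. Without the 9 members it was 19 of 87, or 21.8%. These lists were chosen with the split in view, so the shares are given only as a description. In the uptake list 4 of 18 genes did not overlap. Tfrc was lower on the high side, while the dim Lcn2, Steap2 and Tfr2 were higher there, by 1.31, 0.66 and 0.55 on the log2 scale. Of the 5 genes of ferritin and iron chaperones, Pcbp2 was the one without overlap, with a log2 difference of 0.46 (high minus low).

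In the list of heme uptake, transport and breakdown, 3 of 14 genes did not overlap, all lower on the high side, and the mean of Hmox1 was also lower there. Blvrb, a biliverdin reductase that acts after heme oxygenase, read 3270 to 3865 on the high and 6282 to 9657 on the low side. Slc48a1, which moves heme out of lysosomes and was picked after its values were seen, read 2207 to 3094 against 3985 to 5935. Lrp1, a receptor for heme bound to hemopexin, was the other one, with a log2 difference of -0.43 (high minus low), and Blvra, the other biliverdin reductase, overlapped at -0.16. Heme synthesis had 2 of 8 genes without overlap, 1 in each direction. Alas1, the first and rate-limiting enzyme, read 1550 to 1981 on the high and 2239 to 4272 on the low side, while Urod, a decarboxylase of the same pathway, read 2162 to 2441 and 1727 to 2061. Fech, which inserts iron into heme, overlapped, with a log2 difference of -0.19.

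Copper handling, which supplies the metal of ceruloplasmin, gave 3 of 12 genes without overlap. The metallothioneins Mt1 and Mt2, which bind zinc and copper, were higher on the high side, at 16627 to 19618 against 9704 to 12415 for Mt1 and 8278 to 12139 against 4060 to 6307 for Mt2. Atox1, a copper chaperone of the secretory pathway, was lower there, with a log2 difference of -0.30. Atp7a and Atp7b, the copper pumps that load secreted enzymes, overlapped.

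In the list of iron export and the hepcidin axis, Hjv was the other gene whose sides did not overlap, beside Cp. This co-receptor of the hepcidin pathway, picked after its values were seen, read 102.5 to 231.2 on the high and 1.8 to 34.9 on the low side. Hamp, hepcidin itself, was dim on all arrays, at 6.9 to 86.3. Heph and Hephl1, the ferroxidases related to Cp and named for that relation, read no more than 47.7 on any array, and neither parted the sides. Hp, which binds free hemoglobin and was also picked after its values were seen, read 429.4 to 2181 on the high side and 8.7 to 485.3 on the low side, with overlap.

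Among mitochondrial iron genes 5 of 17 did not overlap, all higher on the high side, from Nfu1 at 0.20 to Hspa9 at 0.85 on the log2 scale. Hspa9, the mitochondrial chaperone that hands on iron-sulfur clusters, read 6396 to 9226 against 3706 to 4669. Among the 12 genes of iron sensing and transcriptional control Mitf, a transcription factor of melanocytes and macrophages, was the one without overlap, with a log2 difference of -0.61 (high minus low). The iron regulatory proteins Aco1 and Ireb2 and the transcription factors Nfe2l2, Bach1 and Hif1a overlapped.

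**Figure D5:**
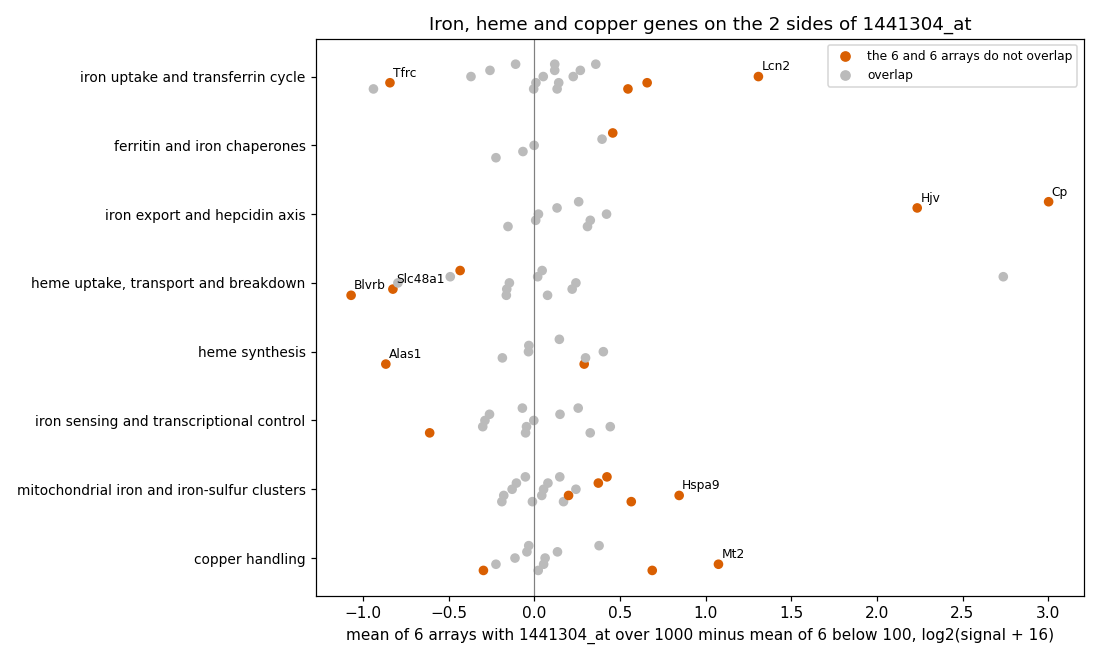
Difference between the mean of 6 high-side and 6 low-side arrays on the log2(signal + 16) scale, 1 point per gene, in 8 lists of iron, heme and copper genes. Orange points are the 21 of 96 genes whose sides do not overlap. Cp at 3.00 and Hjv at 2.24 lie farthest to the right among them, and Blvrb at -1.07 farthest to the left.

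Markers of other cell types also moved along the split. The 11 measured markers of MSCs and stroma summed to 23285 to 39233 on the high and 13932 to 23831 on the low side. Each of the 11 overlapped between the sides, yet the means of Dcn, Cxcl12 and Col3a1 were higher on the high side by 1.80, 1.67 and 1.41 on the log2 scale, and that of Col1a2, the brightest, by 0.54. Of the 2 probe sets of Dcn, only 1 was higher there. Pdgfra, Pdgfrb, Lepr and Eng differed less, by 0.16, 0.11, 0.16 and 0.03. The 12 macrophage and leukocyte markers summed to 197679 to 239189 on the high and 176968 to 215176 on the low side, with overlap. The median log2 difference of the list was 0.18 (high minus low), with 0.45 for Lyz2, 0.37 for Csf1r and 0.12 for Tyrobp. Itgam and Adgre1 were lower on the high side without overlap, with log2 differences of -1.61 and -0.54. Ptprc, at -0.10 with overlap, was the only other marker of the list that was lower there.

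The 6 endothelial markers summed to 736.7 to 1079 on the high and 1108 to 1653 on the low side, with Vwf, at 501.1 to 811.3 against 977.6 to 1420.2, as the one that did not overlap. Vwf dominated these sums, with a mean signal of 901.4 against 102.3 for the next brightest, Kdr. The median log2 difference of the list was 0.24 (high minus low), with -0.83 for Vwf, -0.01 for Kdr and 0.36 for Emcn. The 4 measured markers of blood stem and progenitor cells summed to 255.6 to 403.3 against 153.2 to 238.4, with Meis1, at 171.7 to 271.0 against 48.3 to 104.1, as the one that did not overlap. Meis1 was the brightest and dominated these sums. The log2 difference (high minus low) was 1.32 for Meis1, 0.34 for Kit and 0.08 for Flt3, while Cd34 went the other way, at -0.73. Of the 7 erythroid markers 1 did not overlap, Tfr2, which is also an uptake gene, and their sums were 494.6 to 653.2 and 385.1 to 556.9. The 4 measured hepatocyte markers, of which Alb read 3.0 to 56.8, summed to 34.7 to 115.2 and 35.0 to 86.0. The part of these markers in the differences of the iron genes was not tested.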

How the data were processed

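RNA of 12 samples was measured on Affymetrix mouse arrays (GeneChip Mouse Genome 430 2.0), 6 with and 6 without HSCs. The authors scanned the arrays with GeneChip Operating Software 1.1.1, and the deposited values are its intensity (signal) per probe set on a linear scale, from 0.1 to 66711.6, not on a log2 scale. The 2% trimmed mean was alike on all arrays and the medians ran from 74.8 to 89.0, so arrays had been scaled to a mean and not quantile normalized. How probes were summarised and the scaling target were not given in the sources used here. Arrays give no read depth, and their number limits the precision.

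Log2(signal + 16) of all 12 arrays was fitted in R 4.3.3 with lmFit and eBayes of limma 3.58.1, without a block or filter. P-values were adjusted by Benjamini-Hochberg across the 45037 probe sets and called under 0.05. Of these probe sets 34945 had 1 gene symbol, 932 had several and 9160 had none here. By gene ID 34741 matched the RefSeq gene table, and 0 symbols differed. For each gene the brightest probe set stood for it, and levels were not compared between probe sets. The sides of the splitting probe set (over 1000, below 100) were described without a test.

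The rule for names took all member probe sets, the 3 brightest genes and the 3 with the smallest p of each pathway list, the 3 brightest of each marker list, the sex-linked genes, and the genes most correlated with each member. Dim markers of the rule are given within their list's sum. Genes outside the rule (such as Pdgfra, Pdgfrb, Lepr, Eng, Flt3, Timd4, Dcn, Itgam, Adgre1, Ptprc, Hjv, Hp, Slc48a1, Lrp1, Steap2, Lcn2, Heph, Hephl1, Atp7b, Ireb2, Bach1, Mitf and Nfu1) were picked for the text after their values were seen. The members and lists were chosen with earlier results of these data known. Trf and Ftl1 lacked a single-symbol probe set and were left out.

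In data simulated on these arrays, with 50 probe sets changed at each size among 45037, limma recovered 16% of those changed by 0.5, 78% by 1, 96% by 1.5 and 96% by 2 on the log2 scale, with 10 false calls. The changed probe sets were drawn from those brighter than the median. Noise was independent and normal at the spread of each probe set, without the split of the arrays. These rates are averages and do not apply to members as variable as Cp, whose SE was 0.92, or to dim probe sets.

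Alternatives were other normalizations and constants, leaving out dim probe sets, a block on the replicate number, limma with trend and robust, the unpaired test that the methods name, the side as a term, the mean over all probe sets of a gene, leaving out each array, and leaving out the arrays numbered 3 and 4. For the difference between the sides, the last was chosen after seeing the data.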

Additional observations from a re-analysis of the deposited data

Results flagged for a closer look

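Among the 50 groups of 6 arrays formed by 25 probe sets and 2 conditions, 1 held an array far from the rest. Treated array 5 read 723.9 for Slc11a2 on probe set 1452078_a_at, while the other 5 treated arrays read 530.4 to 589.8, so the gap took 0.660 of the range, above the 95% critical value of Dixon's test. Chance flags about 1 in 20 such groups.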

How the results depend on the processing

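The count of 0 called among the 25 member probe sets and of 0 among the 96 pathway genes held under all 11 alternatives and with each of the 12 arrays left out. Over the whole array, 2 probe sets were called. That count was 1 after quantile normalization, median centring or 75th percentile centring, with a constant of 1, with the unpaired test that the methods name, and with the side as a term. It was 0 with a constant of 64, with a mean signal of at least 100, and with trend and robust, and 8 without the arrays numbered 3 and 4. Leaving out 1 array gave 0 to 4, with 0 without control array 1 or treated array 3 and 4 without control array 6. The cause was not tested.

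With the replicate number as a block 0 probe sets were called, of the members too. Deviations of same-numbered arrays correlated at -0.16 and -0.13 for numbers 1 and 2, whose arrays lay on opposite sides of the splitting probe set. For numbers 3 to 6, whose arrays shared a side, the correlations were 0.10 to 0.15. Of the treated arrays only array 4 matched the control array of its own number best. These values follow the split, so they cannot decide whether the numbers pair the samples. Eif2s3y read 0.5 to 13.6 on the arrays numbered 3 and 4 of both groups and at least 1021.6 on all others. The main fit was kept unpaired, as the methods name.

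None of the differences that turned sign was called. Leaving out 1 array moved the treated minus control difference from -0.68 to 0.25 for Cp, -0.19 to 0.038 for Cybrd1, -0.056 to 0.075 for Fth1 and -0.016 to 0.10 for Ncoa4 on the log2 scale. Fth1 was -0.012 after quantile normalization and -0.022 after median centring. Ncoa4 was -0.038 without the arrays numbered 3 and 4 and -0.00039 as the mean over its probe sets. The difference of Cp between the sides was 2.79 to 3.18 over its alternatives and 2.83 to 3.20 with 1 array left out.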
